A study of Mus musculus with 12 samples.

Results

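Cxcl9, Cxcl10 and Cxcl11 are the genes of the chemokines that bind the receptor CXCR3, and Cxcl11 is annotated as a pseudogene in the reference used here. All 3 were found by gene symbol among the 23329 genes listed for each library, and all 3 had enough counts to be tested with 13038 genes in all. LPS raised the transcripts of all 3 in embryonic intestinal stroma, where Cxcl10 reached a mean of 2269.5 CPM (counts scaled to 1e6 per normalised library) from 0.771 CPM. In adult stroma the rise of Cxcl10 was also called, but it ended at a mean of 115 CPM, and Cxcl9 and Cxcl11 went from 0 counts to means of 0.924 and 0.651 CPM, changes whose call depended on the model. With LPS, all 3 transcripts were higher in embryonic than in adult stroma, by 19.7-fold for Cxcl10, 60.6-fold for Cxcl11 and 104-fold for Cxcl9 in mean CPM. The third embryonic library carried much of these means, and without it the folds were 8.66, 23.2 and 34.2.

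The data were poly(A)-selected, strand-specific mRNAseq of primary cells grown from the small intestinal stroma of C57BL6/J mice, which the labels call intestinal myofibroblasts. The embryonic LPS and embryonic PBS groups came from E14.5 embryos, and the adult LPS and adult PBS groups from adult mice, with 3 libraries in each of the 4 groups. LPS, the lipopolysaccharide of Gram-negative bacteria, was from E. coli O111:B4, was given for 6 h and is stated as 10 µg/µl, and PBS was the vehicle. All 4 groups were cultured cells at passage 2 to 3, and each embryonic culture pooled 6 embryos, so that the spread between embryonic libraries is a spread between pools. The comparisons ask how the embryonic and the adult stroma respond to the same inflammatory stimulus.

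The CXCR3 ligands are CXC chemokines without the ELR motif of the neutrophil-attracting members of the family. Cells make them mainly in response to interferons, through JAK-STAT signalling, and NF-kB adds to the transcription of Cxcl10 after LPS. Their receptor, CXCR3, is carried by activated T cells and NK cells, which the ligands draw into inflamed tissue. Cxcl9 is known for its dependence on interferon gamma, while Cxcl10 also responds strongly to type I interferon.

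The 3 genes lie side by side on the minus strand of chromosome 5 (GRCm38), within 44.1 kb. In the GENCODE annotation Cxcl9 spans bases 92321347 to 92328079, Cxcl10 bases 92346638 to 92348889 and Cxcl11 bases 92359544 to 92365485. Cxcl9 and Cxcl10 are protein-coding genes with 4 exons. Cxcl11 is listed as a polymorphic pseudogene by GENCODE and as a transcribed pseudogene by RefSeq. Its principal transcript model has 5 exons, with an intron of only 2 bases between a pair of them. Counts of Cxcl11 therefore describe a transcript, and nothing in these libraries measures a protein. On the opposite strand, exons of Art3 share 133 bases with those of Cxcl10. The counts were taken by strand, and Art3 had at most 28 counts in a library, so reads of Art3 could add little to Cxcl10.

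The 250 bases before the RefSeq start of Cxcl9 and of Cxcl10 are shown in the direction of transcription, since both genes moved with LPS and the factors that act on them are among the pathway genes described further on. The windows are chr5:92328080-92328329 and chr5:92348890-92349139 of GRCm38.p6, minus strand, from RefSeq. Cxcl11 had no entry. Capitals mark 3 motifs searched on both strands: GAAANNGAAA, the core of an interferon response element, and GGGNNTTCC and GGGNNNTTCC, both forms of the NF-kB site.
Cxcl9: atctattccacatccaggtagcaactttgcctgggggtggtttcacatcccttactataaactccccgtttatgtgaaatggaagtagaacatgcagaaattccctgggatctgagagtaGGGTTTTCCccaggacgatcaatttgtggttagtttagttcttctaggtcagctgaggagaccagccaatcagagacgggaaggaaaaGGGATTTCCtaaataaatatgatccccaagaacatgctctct
Cxcl10: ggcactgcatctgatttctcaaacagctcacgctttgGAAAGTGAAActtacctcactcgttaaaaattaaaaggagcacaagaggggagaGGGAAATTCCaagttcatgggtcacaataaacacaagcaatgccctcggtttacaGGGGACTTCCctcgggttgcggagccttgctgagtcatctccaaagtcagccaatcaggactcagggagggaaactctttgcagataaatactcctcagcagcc
The Cxcl10 window held the interferon response element core once, as GAAAGTGAAA, 213 to 204 bases before the start, a motif found in 2.98% of the 32851 promoter windows of the same length. It also held 2 matches to GGGNNNTTCC, as GGGAAATTCC from base 159 and GGGGACTTCC from base 104 before the start, and the latter overlaps a match to GGGNNTTCC. The Cxcl9 window held no match to the interferon core and 2 matches to GGGNNTTCC, as GGGTTTTCC from base 130 and GGGATTTCC from base 42. GGGNNTTCC was found in 4.98% and GGGNNNTTCC in 4.65% of all windows. These matches describe letters in a window, and binding was not measured.

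Gene counts ranged from 18850224 to 32672370 per library, and 3 counts, taken as the smallest level told apart from 0, stood for 0.0897 to 0.145 CPM. The 10 stromal markers, among them collagen genes and Pdgfra, were over this level in all 12 libraries and summed to between 21549 and 42562 CPM. Macrophage markers were higher in embryonic libraries, with a sum of 133 to 1364 CPM with LPS and 187 to 1960 CPM with PBS, than in adult libraries, with 40.3 to 100.8 CPM. Endothelial markers were uneven in adult cultures, with a sum of 36.0 to 2048 CPM. The summed T and NK cell markers were at most 4.28 CPM in any library. Within a stage, an LPS and a PBS library with the same replicate number are treated as a pair, since they departed from their group means together.

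Cxcl10 was the most abundant of the 3 in every library with LPS, also per kilobase. In embryonic stroma it was at 1153, 838 and 4817 CPM with LPS in replicates 1, 2 and 3, and the PBS libraries were at 0.603, 0.305 and 1.41 CPM. In adult stroma it was at 121, 128 and 95.2 CPM with LPS, and at 0.659, 0.578 and 0.614 CPM with PBS. The PBS libraries of both stages thus had a low level of Cxcl10, from 10 to 47 counts, and every LPS library lay above every PBS library. The third embryonic LPS library stood highest, and Cxcl10 alone made up 0.433% of its gene counts, against 0.113% and 0.0821% in the others and 0.00896% to 0.0139% in adult LPS libraries.

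Cxcl9 was detected almost only with LPS. In embryonic stroma it was at 35.5, 27.7 and 225 CPM with LPS, while the PBS libraries had 1, 1 and 2 counts. In adult stroma it was at 1.24, 0.800 and 0.735 CPM with LPS, from 38, 26 and 17 counts, and the PBS libraries had 0 counts. As for Cxcl10, the embryonic LPS group stood first and the adult LPS group next, with the third embryonic LPS library highest again.

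Cxcl11 had no count in any of the 6 PBS libraries. With LPS it was at 12.5, 17.7 and 88.3 CPM in embryonic stroma, and at 1.04, 0.308 and 0.605 CPM in adult stroma, from 32, 10 and 14 counts. The embryonic LPS libraries lay above the adult ones for each of the 3 genes. Of all tested genes, 13.4% had all 3 embryonic LPS libraries above all 3 adult ones.

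**Figure D1:**
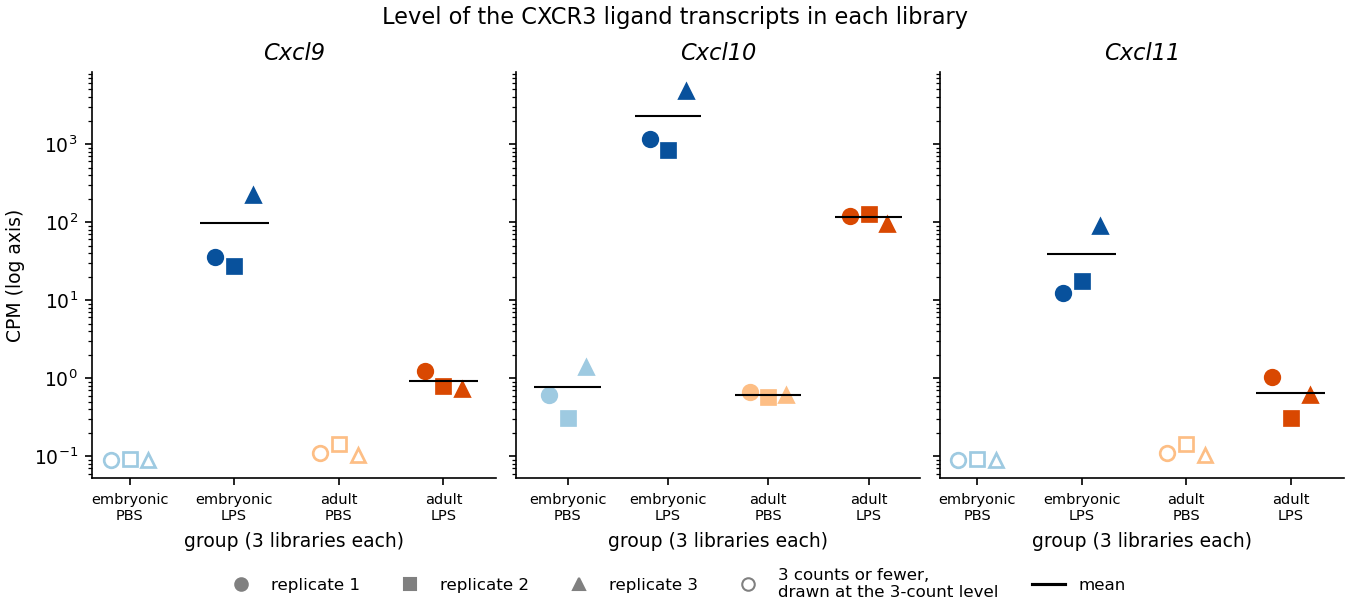
Level of Cxcl9, Cxcl10 and Cxcl11 in CPM on a log axis, for the 4 groups with 3 libraries each. Each symbol is a library, the black line is the group mean, and open symbols are libraries with 3 counts or fewer, drawn at their 3-count level. Each LPS library lies above the PBS libraries of its stage, and the third embryonic LPS library is the highest for all 3 genes, at 4817 CPM for Cxcl10.

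Replicates spread widely in the embryonic LPS group. The mean was 2269.5 ± 2212 CPM for Cxcl10, 96.0 ± 112 CPM for Cxcl9 and 39.5 ± 42.4 CPM for Cxcl11 (SD, n = 3), and the highest library was 5.75, 8.12 and 7.06 times the lowest. Adult LPS libraries were closer together, with 115 ± 17.5 CPM for Cxcl10, 0.924 ± 0.273 CPM for Cxcl9 and 0.651 ± 0.369 CPM for Cxcl11 (SD, n = 3). Per kilobase of the principal transcript, which allows levels to be compared between genes, Cxcl10 was at 2074 ± 2022, Cxcl9 at 33.2 ± 38.6 and Cxcl11 at 24.99 ± 26.8 CPM per kb in embryonic stroma with LPS. In adult stroma with LPS the values were 105 ± 16.0 for Cxcl10, 0.320 ± 0.0946 for Cxcl9 and 0.412 ± 0.234 CPM per kb for Cxcl11. In both stages Cxcl10 stood first, and Cxcl9 and Cxcl11 differed by less than the spread between libraries.

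To measure the response to LPS, each stage was compared with its PBS libraries. In embryonic stroma Cxcl10 was 2944-fold higher with LPS in mean CPM, and 1913-, 2749- and 3428-fold higher in the 3 pairs. On the log2 scale the rise was 11.51 with a standard error of 0.95 (edgeR's quasi-likelihood test, Benjamini-Hochberg adjusted p = 0.000544). Cxcl9 was 2269.6-fold higher over the pooled counts, with a 95% counting interval of 886 to 8332 that rests on 4 PBS counts (same edgeR test, adjusted p = 0.00375). Without the third pair it was 1041-fold higher, with an interval of 288 to 8603 on 2 PBS counts. Cxcl11 was at least 436-fold higher than the 3-count level of the PBS libraries (same edgeR test, adjusted p = 0.0136). The third library raised this bound, which was 166 without it and 138, 193 and 984 in the 3 pairs. Each of the 3 was called as having risen, at an adjusted p under 0.05 and a log2 fold change of at least 2, as were 1.87% of the tested genes. Cxcl11 passed the filter on low counts only through the embryonic LPS group, and with no filter, over 18810 genes, the adjusted p was 0.00298 for Cxcl9, 0.000338 for Cxcl10 and 0.0109 for Cxcl11 (same edgeR test). Fitted with the embryonic libraries alone, all 3 calls were lost (0.0936, 0.0729 and 0.150, in the same order and test), and 4 genes were called in place of 251. All 3 embryonic LPS libraries lay above all 3 embryonic PBS libraries for each member, as they did for 7.58% of the tested genes. Without the first embryonic PBS library the call of Cxcl11 was lost (same edgeR test, adjusted p = 0.0586). With the pairs as a block, described next, all 3 were called here too, beside 3.02% of tested genes that rose.

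In adult stroma Cxcl10 was 186-fold higher with LPS in mean CPM, and 184-, 222- and 155-fold higher in the 3 pairs. On the log2 scale the rise was 7.53 with a standard error of 0.84 (edgeR's quasi-likelihood test, Benjamini-Hochberg adjusted p = 0.00683), and it was the 1 member of the 3 that was called, against 0.422% of all tested genes that rose. The call was lost without the first or the third adult PBS library (adjusted p = 0.0549 and 0.0647, same edgeR test). Cxcl9 was at least 7.77-fold and Cxcl11 at least 5.48-fold higher than the 3-count level, with adjusted p-values of 0.232 and 0.418 in the same edgeR test. The bounds in the 3 pairs were 11.3, 5.53 and 7.18 for Cxcl9 and 9.48, 2.13 and 5.92 for Cxcl11. With the pairs added to the model as a replicate block, all 3 were called in adult stroma, where 1.60% of tested genes then rose. The adjusted p with the block was 0.00184 for Cxcl9, 4.16e-07 for Cxcl10 and 0.0179 for Cxcl11 (same edgeR test), and that of Cxcl11 was 0.0957 without the first adult pair and 0.0614 without the third. Every adult LPS library lay above every adult PBS library for each of the 3, as was seen for 9.10% of the tested genes.

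Whether the response differed between the stages was first looked at pair by pair. The difference between the LPS and the PBS library of Cxcl10, in log2 CPM with a prior count of 2, was 10.74, 11.13 and 11.67 in the embryonic pairs and 7.38, 7.63 and 7.12 in the adult pairs. For Cxcl9 it was 8.48, 8.12 and 10.77 against 4.24, 3.65 and 3.54. For Cxcl11 it was 7.50, 8.001 and 10.32 against 4.004, 2.44 and 3.28. Embryonic and adult pairs did not overlap for any of the 3, as for 9.66% of all tested genes. The mean differences between the stages were 3.80 for Cxcl10, 5.32 for Cxcl9 and 5.36 for Cxcl11 on the log2 scale (exact permutation test, two-sided, p = 0.1 for each, the smallest p that 3 pairs against 3 allow). For Cxcl9 and Cxcl11 these differences depend on the prior count, because their PBS libraries were at or near 0.

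**Figure D2:**
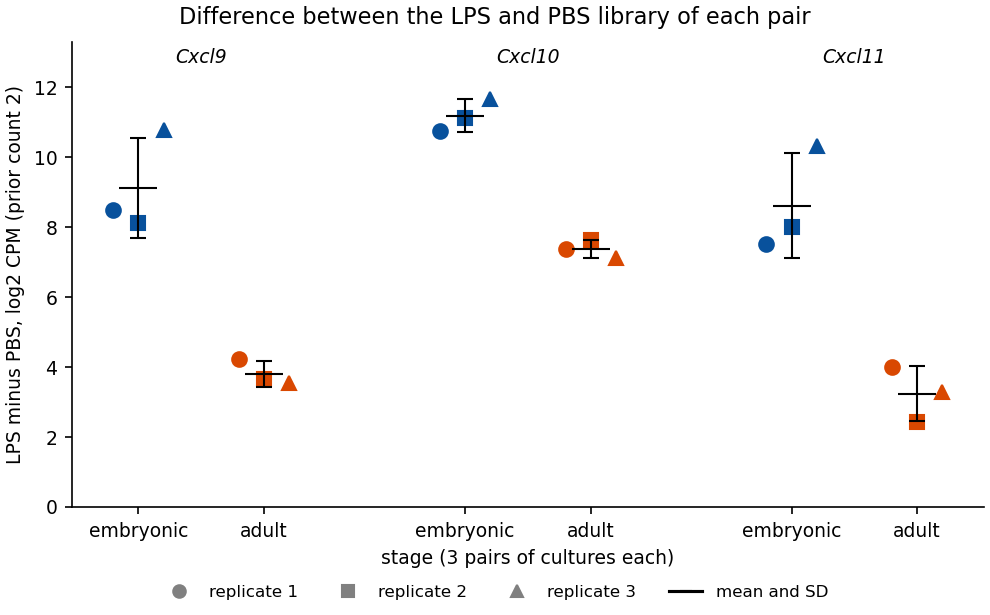
Difference between the LPS and the PBS library of each same-numbered pair, in log2 CPM with a prior count of 2, for 3 embryonic and 3 adult pairs. Symbols are pairs, and the black bars give the mean and SD. The embryonic pairs of Cxcl10 lie between 10.74 and 11.67 and the adult pairs between 7.12 and 7.63.

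The difference between the responses was then tested with an interaction term. The embryonic log2 fold change of Cxcl10 exceeded the adult one by 3.98 (standard error 1.01, unadjusted p = 0.00262). The adjusted p was 1.00 in edgeR's quasi-likelihood test with the Benjamini-Hochberg correction, in which 0.00% of tested genes were called and 293 had an unadjusted p under 0.05. With the replicate block the difference was 3.93 (standard error 0.29) and it was called (adjusted p = 0.00119, same edgeR test), as were 0.798% of the tested genes in this direction. Leaving out each pair in turn gave adjusted p-values from 0.00116 to 0.0179. For Cxcl9 and Cxcl11, whose PBS libraries were at or under 3 counts, edgeR gave standard errors above the estimates, with 3.32 (standard error 27.5) for Cxcl9 and a larger error still for Cxcl11. In DESeq2 the difference was 4.23 for Cxcl9 (standard error 1.78, unadjusted p = 0.0171) and 6.31 for Cxcl11 (standard error 2.08, unadjusted p = 0.00242). Neither was called there, with adjusted p-values of 1 and 0.389, nor in DESeq2 with the block, with 0.107 and 0.499.

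With PBS alone the embryonic level of Cxcl10 was above the adult one by 0.32 on the log2 scale with a standard error of 0.77, which was not called (edgeR's quasi-likelihood test, Benjamini-Hochberg adjusted p = 0.887), and 4.08% of the tested genes were called. The direction rested on the third embryonic PBS library, without which the difference was -0.44 (same edgeR test, adjusted p = 0.821). With LPS the embryonic level was higher by 4.30 for Cxcl10 (standard error 0.69, adjusted p = 0.0102), by 6.68 for Cxcl9 (standard error 0.93, adjusted p = 0.0102) and by 5.91 for Cxcl11 (standard error 1.02, adjusted p = 0.0312) on the log2 scale, in the same edgeR test. Cxcl9 and Cxcl10 were called, as were 3.04% of the tested genes in this direction and 5.31% in either. Cxcl11 also passed the threshold, after passing the filter on low counts only through the embryonic LPS group, and with no filter the adjusted p was 0.00895 for Cxcl9, 0.0102 for Cxcl10 and 0.0301 for Cxcl11 (same edgeR test). Without the third adult LPS library the adjusted p was 0.0619 for Cxcl9, 0.0630 for Cxcl10 and 0.140 for Cxcl11, and without the first or the second it was 0.0895 and 0.0960 for Cxcl11 (same edgeR test). The third embryonic library raised the mean folds: libraries numbered 1, 2 and 3 gave 9.50-, 6.53- and 50.6-fold for Cxcl10, 28.7-, 34.6- and 306-fold for Cxcl9 and 12.01-, 57.5- and 146-fold for Cxcl11, although the numbers do not pair cultures across stages.

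The make-up of the mixture of transcripts was read as ratios between members within each LPS library, which do not depend on the library total. Per kilobase, Cxcl10 exceeded Cxcl9 by 85.7, 80.0 and 56.6 times in embryonic stroma and by 259, 424 and 342 times in adult stroma. Cxcl10 exceeded Cxcl11 by 133, 68.5 and 78.8 times in embryonic and by 168, 603 and 227 times in adult stroma. Neither ratio overlapped between the stages, but for Cxcl10 to Cxcl11 the 95% counting intervals of the first embryonic library, 120 to 148, and of the first adult library, 119 to 247, did. The mean log2 ratio differed between the stages by -2.20 for Cxcl10 to Cxcl9 and by -1.67 for Cxcl10 to Cxcl11, embryonic minus adult (exact permutation test, two-sided, p = 0.1 for each, the smallest possible, and 0.15 adjusted over the 3 ratios). The ratio of Cxcl9 to Cxcl11 was 1.55, 0.856 and 1.39 in embryonic and 0.650, 1.42 and 0.665 in adult stroma, and these values overlapped (exact permutation p = 0.3, also 0.3 adjusted).

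**Figure D3:**
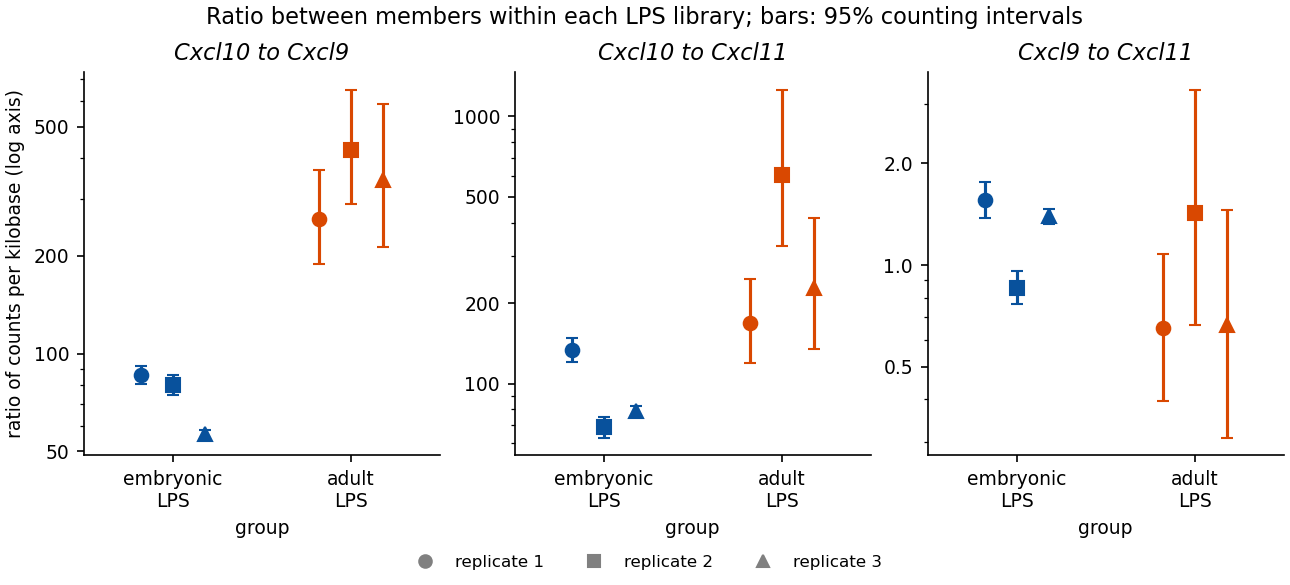
Ratio of counts per kilobase between pairs of members within each of the 6 LPS libraries, on log axes. Symbols are libraries and bars are 95% intervals for counting error alone. Cxcl10 to Cxcl9 lies between 56.6 and 85.7 in embryonic and between 259 and 424 in adult libraries, while the ratios of Cxcl9 to Cxcl11 overlap.

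Macrophages can also make these chemokines, and the sum of their markers was higher in embryonic than in adult libraries. Of the 11 tested markers, 0 were called between the stages with LPS and 1 with PBS. The median log2 fold change of these markers, embryonic against adult, was 4.08 with LPS and 4.38 with PBS. In bulk samples fewer cells of a type and less RNA per cell cannot be told apart. The embryonic LPS libraries had summed macrophage markers of 133, 683 and 1364 CPM, and the third was also the highest for all 3 chemokines. The first had the lowest sum, near the 100.8 CPM of the first adult LPS library, and its Cxcl10 was 1153 CPM against 838 CPM in the second embryonic library and 121 CPM in that adult library. Cxcl9 in the same embryonic library was also above that of the second, at 35.5 against 27.7 CPM, while Cxcl11 was below it. None of the 11 tested macrophage markers was called between LPS and PBS in either stage without the block, and 1, Cx3cr1, fell in embryonic stroma with it. The part of macrophages in the difference between stages was not tested. The endothelial markers varied from 36.0 to 1910 CPM among the adult LPS libraries, in which Cxcl10 was between 95.2 and 128 CPM, and their part was not tested.

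**Figure D4:**
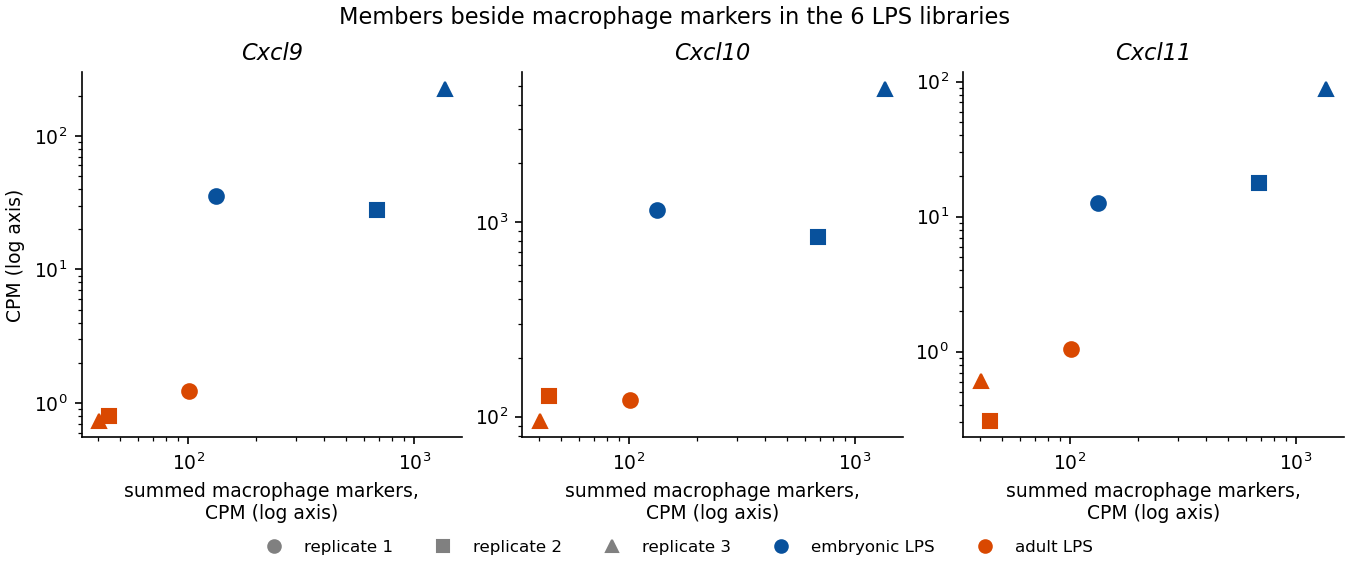
Level of each member in CPM against the summed CPM of 12 macrophage markers, both on log axes, in the 6 LPS libraries. Each symbol is a library. The first embryonic and the first adult library have close marker sums, 133 and 100.8 CPM, and Cxcl10 levels of 1153 and 121 CPM.

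The receptor of these chemokines was near the limit of detection. Cxcr3 had at most 15 counts in a library and was not tested, and its mean was 0.356 CPM in embryonic stroma with LPS. Of the 10 T and NK cell markers, 6 were at or under 3 counts in all libraries, and the others were above that in at least 1 library. In a single library, 0 to 3 of the 10 were over 3 counts. Among those at or under 3 counts, Cd3e, Cd3d and Cd8a, which mark T cells, had at most 1 count in any library, and Cd3g and Ncr1 had none. Ackr3, a scavenging receptor that binds Cxcl11, was at 35.4 and 36.3 CPM in embryonic stroma with LPS and PBS and at 130 and 74.5 CPM in adult stroma, and it was lower in embryonic than in adult stroma with LPS (log2 fold change -1.88, adjusted p = 0.0485, edgeR's quasi-likelihood test, Benjamini-Hochberg). Dpp4, the peptidase that trims and inactivates CXCR3 ligands, was at 17.6 and 20.3 CPM in embryonic and at 26.6 and 29.1 CPM in adult stroma with LPS and PBS, and was not called. Of the 7 genes listed as receptors, scavengers and partners of these chemokines, 5 were tested and none was called for LPS in either stage. With the block, only Sdc4, a heparan sulphate carrier on the cell surface, was called, at 446 against 111 CPM in embryonic stroma (same edgeR test, adjusted p = 0.0038). In adult stroma Sdc4 was at 899 against 291 CPM with LPS and PBS. Its log2 fold change there with the block, 1.59, was under the fold threshold (same edgeR test, adjusted p = 0.0238). Sdc1 was at 84.7 and 74.8 CPM in embryonic stroma with LPS and PBS, the platelet chemokine Pf4 was at 7.33 and 6.57 CPM, and the erythrocyte and venular scavenger Ackr1 had at most 51 counts.

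Between the LPS receptor and the interferons, 4 of 11 tested genes rose in embryonic and 0 in adult stroma, and 4 and 2 with the block. Among all tested genes 1.87% rose in embryonic and 0.422% in adult stroma, and 3.02% and 1.60% with the block. These shares also stand beside the counts for the lists that follow. Ifnb1, which encodes interferon beta, had no count with PBS. With LPS it was at 1.33, 12.6 and 24.1 CPM in embryonic and at 1.11, 0.154 and 0.259 CPM in adult stroma. Ifnb1 passed the filter on low counts only through the embryonic LPS group, the group in which it was highest. Its rise was called in embryonic stroma (adjusted p = 0.0452) and not in adult stroma (0.648, both from edgeR's quasi-likelihood test, Benjamini-Hochberg). With the block, the rise of Ifnb1 was called in embryonic and in adult stroma (adjusted p = 0.00133 and 0.0331, same edgeR test). The difference between the stages with LPS was not called (adjusted p = 0.0939, same edgeR test without the block). Ifng, the type II interferon, had at most 1 count and Ifna4 at most 2 counts in any library, so neither was detected. The other genes that rose in embryonic stroma were Irf7, the amplifier of type I interferon transcription, from 2.46 to 133 CPM, Cd14, the LPS co-receptor, from 12.4 to 273 CPM, and Ikbke, a kinase that activates interferon regulatory factors, from 8.80 to 62.4 CPM. In adult stroma Irf7, Cd14 and Ikbke were not called without the block. With the block Cd14 was called there, with a log2 fold change of 2.13 (adjusted p = 0.00112, same edgeR test). Irf7 and Ikbke were under the fold threshold there, at 1.72 and 1.88 (adjusted p = 0.00468 and 0.000521, same edgeR test). The interaction with the block was called for Cd14 and Irf7 and not for Ikbke (adjusted p = 0.0191, 0.00199 and 0.269, same edgeR test). Apart from Cd14, genes of the receptor complex and its adaptors were not called. In embryonic stroma Tlr4 went from 17.1 CPM with PBS to 15.2 CPM, and in adult stroma from 37.4 to 32.3 CPM. Ly96, Ticam1, Ticam2, Traf3, Tbk1 and Irf3 did not pass in either stage. Traf3 missed on fold size alone, with log2 fold changes of 0.74 in embryonic and 0.60 in adult stroma (adjusted p = 0.00286 and 0.0175, same edgeR test).

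Of 11 genes for interferon receptors and JAK-STAT signalling, 3 rose in embryonic and 1 in adult stroma, with or without the block. Stat2, a factor of type I interferon signalling, rose from 11.1 to 208 CPM in embryonic stroma, and its adult means with PBS and LPS were 12.8 and 40.0 CPM. Irf9, its partner, rose from 10.2 to 56.3 CPM in embryonic stroma. Irf1, a factor induced by both interferon and NF-kB, rose in both stages, from 8.80 to 160 CPM and from 5.54 to 63.9 CPM. With the block, the interaction of stage and LPS was called for Stat2 and Irf9 (adjusted p = 0.000218 and 0.0129, same edgeR test) and not for Irf1 (adjusted p = 0.773). The receptor subunits Ifnar1, Ifnar2, Ifngr1 and Ifngr2 were between 40.6 and 260 CPM in the 4 group means and did not reach the fold threshold.

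Most NF-kB subunits rose in both stages. Of 5, 4 were called in embryonic stroma (Nfkb1, Nfkb2, Relb and Rel) and 3 in adult stroma (the same without Rel). Nfkb1 rose from 53.7 to 282 CPM in embryonic and from 50.1 to 229 CPM in adult stroma, and Relb from 11.5 to 75.5 CPM and from 18.3 to 75.7 CPM. None of the 5 was called in the interaction, with or without the block. Among 8 negative regulators, 7 rose in embryonic and 3 in adult stroma (5 with the block). Usp18, which dampens type I interferon signalling, rose from 1.36 to 188 CPM in embryonic stroma and went from 2.07 to 14.9 CPM in adult stroma, which was called with the block (same edgeR test, adjusted p = 0.000302). Nfkbia, the inhibitor that NF-kB induces against itself, rose in both, from 18.5 to 358 CPM and from 29.0 to 292 CPM. The interaction with the block was called for Usp18 (adjusted p = 0.00119, edgeR's quasi-likelihood test, Benjamini-Hochberg) and for none of the other 7.

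The CXCR3 ligands were set beside 10 interferon-stimulated genes and 10 other CXC chemokines. All 10 interferon-stimulated genes rose in embryonic stroma and 5 in adult stroma, 9 with the block. In the same fits 1.87%, 0.422% and 1.60% of all tested genes rose. The 10 genes were listed with earlier results of these data known. Rsad2, an antiviral enzyme, was at 619, 1328 and 4528 CPM in the embryonic and at 68.0, 61.5 and 67.0 CPM in the adult LPS libraries. Gbp5, a GTPase of cell defence, rose from 0.0797 to 299 CPM in embryonic and from 0.367 to 59.9 CPM in adult stroma. With the block the interaction was called for 8 of the 10, all but Gbp2 and Mx1, the latter at or under 3 counts in each adult PBS library, each with the larger rise in embryonic stroma. Their median log2 fold change was 8.73 in embryonic and 4.19 in adult stroma, beside 11.51 and 7.53 for Cxcl10 and about 0 for all tested genes. In embryonic and adult stroma the same median was 0.60 and 0.60 for the relay from LPS to interferon, 1.23 and 0.89 for the interferon receptors and JAK-STAT genes, 2.395 and 2.05 for the NF-kB subunits, and 4.22 and 2.97 for the negative regulators.

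Of the other CXC chemokines, 7 were tested. Cxcl1, Cxcl2, Cxcl3 and Cxcl5, which attract neutrophils, rose in both stages. For Cxcl1, the embryonic log2 fold change exceeded the adult one by 1.34 with the block (standard error 0.41), which was not called (adjusted p = 0.345, same edgeR test). Cxcl1 was at 478, 200 and 523 CPM in the embryonic and at 1111, 729 and 722 CPM in the adult LPS libraries. Cxcl2 was at 301, 298 and 910 CPM and at 188, 126 and 151 CPM. The embryonic LPS libraries were thus all above the adult ones for Cxcl2, as for Cxcl10, and all below them for Cxcl1. Of all tested genes, 13.4% had the order of Cxcl2, and the share with the order of Cxcl1 was not computed. Between the stages with LPS, 0 of the 7 were called. Cxcl12, a chemokine that stroma makes without a stimulus, was at 785 and 812 CPM in embryonic and at 711 and 831 CPM in adult stroma with LPS and PBS. Of the 10 genes around the cluster on chromosome 5, 9 were tested and none was called for LPS in either stage, with or without the block. Their median log2 fold change was 0.33 in embryonic and 0.02 in adult stroma.

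**Figure D5:**
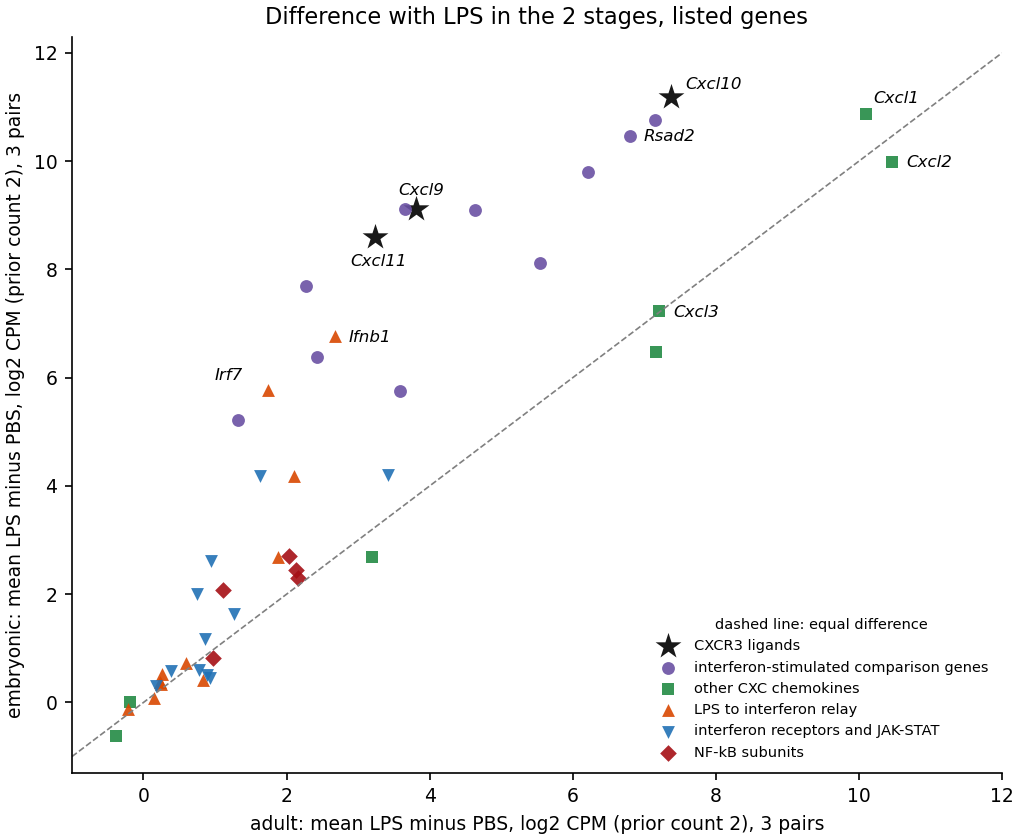
Mean difference between LPS and PBS libraries in log2 CPM (prior count 2) over 3 adult pairs (horizontal axis) and 3 embryonic pairs (vertical axis), for the tested genes of 6 lists. Each symbol is a gene and the dashed line marks equal differences. Cxcl10, at 7.38 in adult and 11.18 in embryonic pairs, Cxcl9 and Cxcl11 lie above the line among the interferon-stimulated genes, and Cxcl1, Cxcl2 and Cxcl3 lie near it.

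The genes whose pattern was most like each member were sought by Pearson correlation of log2 CPM over the 12 libraries of both treatments, as a description. The treatment and the depth of a library are the same for all its genes. Cxcl9 was most like Cxcl11 (r = 0.995), followed by Ccl22 (0.992), Il12b (0.990), BC006779 (0.985) and Hdc (0.981). Cxcl11 was most like Ccl22 (0.996), Cxcl9 (0.995), Il27 (0.987), Il12b (0.986) and BC006779 (0.984). Cxcl10 was most like Rsad2 (0.986), Gbp2, Ccl5, Ifit1 and Gbp3 (each 0.984). Cxcl9 came at rank 46 for Cxcl10 (0.953) and Cxcl11 at rank 52 (0.951). The r between Cxcl9 and Cxcl11 was thus higher than that of either with Cxcl10. With PBS, however, Cxcl11 had no count and Cxcl9 at most 2 counts in any library, while Cxcl10 had 10 to 47. Cxcl9 and Cxcl11 therefore shared values at or near 0 in every PBS library, which can raise r by itself. For this reason the correlations cannot decide which members followed each other more closely.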

How the data were processed

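The authors trimmed the reads with Trim Galore, mapped them to GRCm38.p6 with STAR, kept unique hits with at most 1 mismatch, and deposited raw counts per gene without normalization, in 1 table per library. The strand column with the larger total was used; the opposite strand held 1.14% to 1.98% of gene counts, and rows that name no gene (17.4% to 19.9% of reads) were left out. Stage, treatment and replicate number came from the labels. The members and gene lists were chosen with earlier results of these data known, and so were the motifs.

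Genes with a CPM above 0.5 in all libraries of at least 1 group were tested in R 4.3.3 with edgeR 4.0.16 (TMM, quasi-likelihood test, Benjamini-Hochberg over all 13038 genes), in 1 model of the 4 groups. LPS effects were called at an adjusted p under 0.05 and a log2 fold change of 2 or more in size, the other comparisons by the adjusted p alone. A standard error is the log2 fold change divided by the root of the F statistic. Same-numbered LPS and PBS libraries are not stated to share a culture; their deviations from the group means correlated by 0.710 to 0.784 in embryonic and 0.610 to 0.850 in adult pairs, over genes, and by -0.306 to -0.0022 across stages, so the number within a stage was used as the block. Folds against PBS libraries at 0 use 3 counts; intervals and that level cover counting error only. Genes were named from each list when called in either stage (up to 6), with all of the receptor list and the relay from LPS to interferon. Gene models came from GENCODE M21 and RefSeq. Of 134 listed genes 133 were found, 3 through a synonym, and 1 epithelial marker was not. The values of 1 further gene are not reported here. Epithelial markers summed to 7.69 to 59.6 CPM and dendritic cell markers to 5.30 to 19.5 CPM. The fits were tested on simulated counts. DESeq2 1.42.0, other scalings, filters and blocks, each stage alone, counts without regard to strand and each library left out were tried as alternatives. The block fits without each pair, with DESeq2 and without regard to strand, and the folds without the third embryonic pair, were added after the data were seen.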

Additional observations from a re-analysis of the deposited data

Results flagged for a closer look

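The response of Cxcl10 to LPS differed between the stages when the interaction was fitted with the replicate block (edgeR's quasi-likelihood test, Benjamini-Hochberg adjusted p = 0.00119). The difference in log2 fold change was 3.93 (standard error 0.29). Each of the 3 embryonic pairs had a larger rise than any adult pair, as for 9.66% of all tested genes. Without the block the interaction was not called in edgeR, and the labels do not state the pairing that the block uses. Counts on the strand opposite to each gene, which no comparison uses, were above the PBS libraries in some LPS libraries. The highest LPS library had 42 such counts for Cxcl9, 507 for Cxcl10 and 5 for Cxcl11, while no PBS library had more than 1. In the LPS libraries they made up 0% to 1.60% of the reads at Cxcl9, 0.227% to 0.813% at Cxcl10 and 0% to 0.583% at Cxcl11, beside 1.14% to 1.98% of the counts over all genes. Groups of 3 libraries were not tested for single outlying libraries.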

How the results depend on the processing

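Over 19 results on the members and 319 values under alternative settings, 295 kept their direction and their side of the threshold, 23 crossed the threshold and 1 reversed. All p-values here are adjusted, from edgeR unless named. With the embryonic libraries fitted alone, the adjusted p of the LPS effect in the edgeR test was 0.0936 for Cxcl9, 0.0729 for Cxcl10 and 0.150 for Cxcl11. At a threshold of 0.01 the embryonic call of Cxcl11 (0.0136) and the calls between stages with LPS were lost (Cxcl9 and Cxcl10 0.0102, Cxcl11 0.0312). In adult stroma Cxcl9 was called with the replicate block (0.00184), in DESeq2 (0.000103) and with adult libraries alone (0.0276), and Cxcl11 with the block (0.0179) and in DESeq2 (0.00104); Cxcl11 did not pass the filter in adult libraries alone. The interaction of Cxcl10 was called with the block (0.00119) and in DESeq2 (0.0110). The interaction of Cxcl9 and Cxcl11 was called in none of these. The block changed no other call of the members. With PBS, the small difference of Cxcl10 between stages turned to the adult side without the third embryonic PBS library (0.821), and leaving out each library gave 0.704 to 0.948. Leaving out each library gave 0.00656 to 0.0586 for Cxcl11 in embryonic stroma, 0.00256 (without the third embryonic LPS library) to 0.626 for Cxcl9 and 0.000257 to 0.0647 for Cxcl10 in adult stroma, and, between stages with LPS, 0.00310 to 0.0619 for Cxcl9, 0.00776 to 0.0630 for Cxcl10 and 0.0280 to 0.140 for Cxcl11. The cause of these changes was not tested. LPS called 251 genes in embryonic and 55 in adult stroma, but 444 and 211 with the block, 379 and 170 in DESeq2, 4 and 124 with each stage alone, and 103 and 15 at 0.01; the interaction 0, but 110 with the block (34 to 164 without each pair), 25 in DESeq2 and 270 in DESeq2 with the block; and the stages 692 genes with LPS and 532 with PBS, but 1704 and 1552 in DESeq2, 1059 and 891 with a block across stages, and 96 and 102 at 0.01. Leaving out each library gave 84 to 303, 4 to 91, 132 to 814 and 152 to 638 genes for LPS in embryonic and adult stroma and for the stages with LPS and PBS. Depth limits Cxcl9 and Cxcl11 in adult stroma, which rest on 10 to 38 counts per LPS library.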
